A study of Homo sapiens with 24 samples.

Results

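The second day of dorsomorphin induction was followed in H1, an established human embryonic stem cell line, by comparing 4 arrays taken at 48 h with 4 arrays taken at 24 h. These 8 arrays are those whose titles name either time, of 24 arrays in a series that also covers 0, 12, 36 and 72 h, and every gene named by the platform annotation was considered. Dorsomorphin (compound C in the growth protocol) inhibits BMP receptors and the kinase AMPK. Before treatment the cells had been plated singly at high density on Matrigel and grown to confluency in mTeSR, a defined stem cell medium. For the induction mTeSR gave way to DMEM/F12 with KSR, a serum replacement, glutamine, nonessential amino acids and β-mercaptoethanol, which was renewed daily. Both times therefore lay in the same induction medium, whole days after the start, and the switch of medium had taken place before either. The labels give neither the dose of dorsomorphin nor the clock time of sampling, and cells without dorsomorphin at 24 or 48 h were not analysed here. A difference between the times thus holds continued exposure, time in culture and daily feeding together.

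Log2 signals from the Illumina HumanHT-12 v4 bead array were deposited, with values between 5.57 and 15.51. A background of 7.10 was set at the 99th percentile of 387 olfactory receptor measurements, and a gene was tested when it lay above background on at least 4 of the 24 arrays. This criterion was met by 10215 of the 17760 named genes and left 7545 as too dim. Replicate arrays at 24 h, and likewise at 48 h, correlated pairwise at r = 0.975 to 0.991 over the genes tested. Whether the replicates came from separate cultures is not stated, and p-values therefore reflect the spread between arrays alone, which may be technical. Arrays carry no counts, and their number limits the precision.

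Some arrays stood apart in a way the time labels do not give. On 6 arrays, 1 at each time, the lectin gene CLEC2A lay at 7.17 to 7.56 against 9.10 to 10.71 on the other 18, and over all genes tested these 6 deviated from their time means alike, with pairwise correlations of 0.26 to 0.58. At 24 h this was replicate 2 and at 48 h replicate 4, whose deviations correlated at 0.49. Replicates 1 and 2 also differed slightly from replicates 3 and 4 in the lower quartile of the values, at 6.525 to 6.530 against 6.514 to 6.520. What sets these arrays apart is not given in the sources used here, so counts of calls are also given without the 6 arrays and within each pair of replicates. Named genes whose call was lost without the 6 arrays are listed with those counts.

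As background, pluripotent cells shielded from BMP signals turn to neuroectoderm, and the earliest neural plate is anterior in character unless Wnt, FGF or retinoic acid signals posteriorize it. Secreted Wnt antagonists protect the anterior plate, where HESX1, SIX3, FEZF1 and OTX2 are expressed. FGF signalling through ERK helps human stem cells stay pluripotent, and its feedback inhibitors of the sprouty and DUSP families serve as a readout of pathway activity.

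Between 24 and 48 h, 900 genes passed the threshold of adjusted p below 0.05, which is 8.81% of those tested. Of these, 412 were higher at 48 h (4.03%) and 488 lower (4.78%), while the median of all genes tested was 0.00 on the log2 scale. Of the higher genes 48 (0.47%) differed 2-fold or more, and of the lower 41 (0.401%). All 4 arrays of 1 time lay above all 4 of the other for 1325 genes (13%), and 724 genes (7.09%) met both criteria. Dimness on all 4 arrays at 24 h together with a signal above background on all 4 at 48 h held for 15 of the higher genes, among them LMO1, VWF, SIX3, CXCR4, EFNB1 and LRP2. The reverse held for 18 lower genes, among them ADAMTS1, CALCA, CTSK, PCP4 and SYT4. LRP2 and these 5 genes are examples chosen after their values were seen. In bulk RNA, fewer cells of a type and less RNA per cell cannot be told apart.

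The number of calls depended on single arrays. Without replicate 4 at 48 h there were 217 higher and 201 lower genes, without replicate 1 at 48 h 238 and 260, without replicate 3 at 24 h 223 and 258, and without replicate 4 at 24 h 220 and 239. Replicates 1 and 2 alone gave 5 higher and 7 lower genes, and replicates 3 and 4 alone 238 and 195. Without the 6 low-CLEC2A arrays there were 383 higher and 348 lower genes, and 578 of these were also called with all arrays, in the same direction in each case. Of 124 named genes that passed with all arrays, 124 had the same sign within replicates 1 and 2 and 124 within replicates 3 and 4, and 104 passed without the 6 low-CLEC2A arrays. The other 20 did not, among them TET1, INA, FGF2, DUSP1, LEF1, HES6, ELOVL6, STC2, SLC7A5 and POLE. Also lost were SDHA, NDUFC1, BYSL, COL5A2, VIM, NTN1, NLGN4X, KMT2A, CDKN1C and BMAL1. The 24 largest rises and falls passed in each of the 8 fits that left out 1 array at 24 or 48 h, and 4 of them passed with replicates 1 and 2 alone. All these genes were chosen on the same arrays. Agreement within parts of those arrays was thereby favoured and is no independent support.

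**Figure D1:**
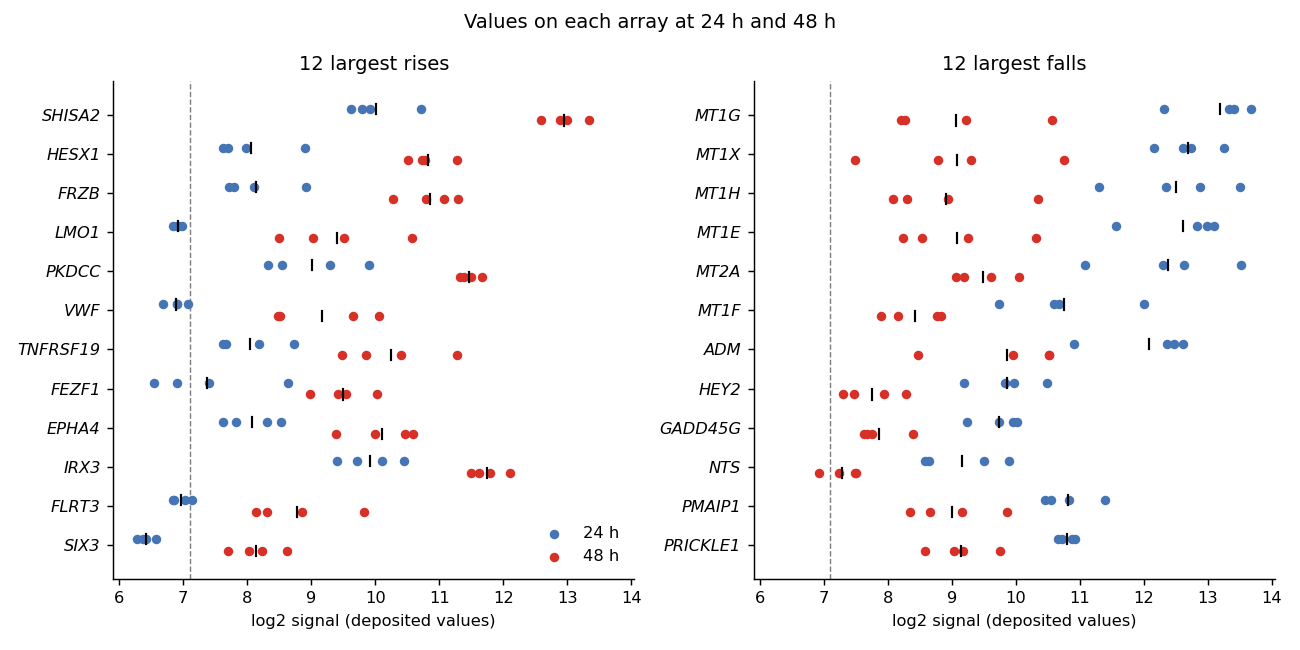
Deposited log2 signal on each array for the 12 largest rises (left) and the 12 largest falls (right), with the 4 arrays at 24 h in blue, the 4 at 48 h in red, a black tick at each mean and a dashed line at the background of 7.10. The arrays of the 2 times do not overlap for any gene shown, as the rule for naming them requires, and LMO1, VWF and SIX3 have every 24 h array below background.

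The forebrain genes HESX1, FEZF1 and SIX3, the neural plate gene IRX3 and the Wnt pathway genes SHISA2, FRZB and TNFRSF19 were among the 12 largest rises. In what follows, ± after a mean is the SD of n = 4 arrays, ± after a difference is the SE of limma's fit, and adjusted p is that of limma with Benjamini-Hochberg adjustment over all genes tested. The count of each list is to be set against all genes tested, of which 4.03% were higher, 4.78% lower and 8.81% either. SHISA2, a protein of the endoplasmic reticulum that retains immature Wnt and FGF receptors, stood at 9.91, 10.72, 9.63 and 9.79 on replicates 1 to 4 at 24 h and at 12.89, 12.60, 12.99 and 13.35 at 48 h. Every array at 48 h lay above every array at 24 h, and the log2 rise of 2.94 ± 0.32 (7.70-fold; adjusted p = 6.42e-06) was the largest of the comparison. HESX1, a homeobox repressor of the anterior neural plate and later the pituitary, stood at 7.98, 8.90, 7.63 and 7.70 at 24 h and at 11.28, 10.51, 10.74 and 10.78 at 48 h. It rose by 2.77 ± 0.33 (6.84-fold; adjusted p = 9.86e-06), with replicate 2 the brightest at 24 h and the dimmest at 48 h.

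FEZF1, a zinc finger repressor of the forebrain, exceeded background on 2 of 4 arrays at 24 h, with values of 7.40, 8.64, 6.90 and 6.54, and on all 4 at 48 h, with 9.41, 8.98, 9.54 and 10.03. The groups do not overlap, and the measured rise was 2.12 ± 0.36 (adjusted p = 0.000436). SIX3, a homeobox gene of the forebrain and eye field, lay at 6.28 to 6.58 at 24 h, below background throughout, and at 8.62, 7.70, 8.23 and 8.02 at 48 h. It was at least 2.06-fold higher (adjusted p = 0.0011), a bound set against the background. LHX5, a LIM homeobox gene of the anterior neural plate, rose by 1.26 ± 0.19 having exceeded background on a single array at 24 h (adjusted p = 0.000147), and OTX2, which patterns forebrain and midbrain, by 1.07 ± 0.30 from 10.58 ± 0.58 to 11.65 ± 0.33 (adjusted p = 0.0262).

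HESX1, FEZF1, SIX3, LHX5 and OTX2 were the 5 calls among 10 tested forebrain and eye-field factors, all upwards, where 4.03% of all genes tested were higher. The list's median difference was 0.72 on the log2 scale, or 0.52 with values below background raised to it, against 0.00 for all genes. PAX6, an eye-field and neuroectoderm factor, lay at 6.57, 7.16, 6.67 and 6.31 at 24 h and at 7.21, 6.75, 6.65 and 7.63 at 48 h, so the groups overlapped around the background and the difference of 0.38 ± 0.27 did not pass (adjusted p = 0.438). LHX2, another eye-field factor, stood at -0.22 ± 0.41 (adjusted p = 0.814) and exceeded background on 1 array at each time, replicate 2 at 24 h and replicate 4 at 48 h. OTX2 missed the threshold when any of 5 arrays was left out, with adjusted p of at most 0.123 without replicate 4 at 24 h, and passed without the 6 low-CLEC2A arrays (adjusted p = 0.00211).

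Of 33 tested neural plate and neural stem cell factors, 12 rose, where 4.03% of all genes tested were higher, 1 fell and 20 did not pass, with a median of 0.48, or 0.36 with dim values at background. MEIS2, a homeobox cofactor, gave the smallest adjusted p of the comparison. Its arrays read 6.93, 7.22, 6.93 and 6.74 at 24 h, 1 of them above background, and 8.61, 8.38, 8.58 and 8.40 at 48 h, a rise of 1.53 ± 0.12 (2.90-fold; adjusted p = 1.22e-08). IRX3, an Iroquois homeobox gene of the neural plate, went from 9.92 ± 0.45 to 11.75 ± 0.26 (1.83 ± 0.30; adjusted p = 0.000272), and its neighbour in the family IRX5 from 7.29 ± 0.16 to 8.60 ± 0.60 (1.31 ± 0.28; adjusted p = 0.00494). POU3F1, a POU factor that promotes neural fate in the mouse epiblast, rose by 1.45 ± 0.23 (adjusted p = 0.000216).

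The SoxB factors were bright at both times. SOX21 read 11.90, 12.02, 11.92 and 11.17 at 24 h and 12.72, 12.58, 12.89 and 12.86 at 48 h. The rise of 1.01 ± 0.21 passed (adjusted p = 0.00422). SOX2, which works both in pluripotent cells and in neural progenitors, read 12.21, 12.65, 12.65 and 12.28 at 24 h and 12.84, 12.74, 13.06 and 13.25 at 48 h. Although its groups did not overlap, the difference of 0.53 ± 0.17 lay just outside the threshold (adjusted p = 0.0519). SOX3 stood at -0.44 ± 0.23 (adjusted p = 0.279) and nestin, the filament gene NES of neural progenitors, at -0.32 ± 0.15 (adjusted p = 0.198), both values being given for readers of the progenitor markers and chosen after they were seen. The 1 fall of the list was VIM, the filament vimentin, at -0.46 ± 0.13 (adjusted p = 0.0263), and it missed the threshold without any of 5 arrays (adjusted p of at most 0.101 without replicate 3 at 24 h) and without the 6 low-CLEC2A arrays (0.131).

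Secreted Wnt antagonists, Wnt ligands and frizzled receptors moved one way among the genes that passed. Of 13 tested, 9 rose, against 4.03% of all genes tested, none fell and 4 did not pass, with a median of 0.57 on the log2 scale. FRZB, a secreted frizzled-related protein that binds Wnt ligands, read 8.10, 8.92, 7.79 and 7.71 at 24 h and 11.07, 10.28, 10.80 and 11.29 at 48 h, a rise of 2.73 ± 0.32 (6.63-fold; adjusted p = 9.86e-06). The receptors FZD8 (1.16 ± 0.16; adjusted p = 4.75e-05) and FZD5 (0.99 ± 0.19; adjusted p = 0.0015), which are known from the anterior neural plate and eye field, rose as well, and their arrays did not overlap. SHISA2, described above, was the largest rise in the list, which also held WNT4, WNT5A, FZD3, SFRP1 and FZD7 among its calls. Only 5 of its members passed without replicate 1 or 4 at either time.

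Among 13 Wnt targets and feedback genes, 3 rose, 3 fell and the median was 0.02. TNFRSF19, a receptor of the TNF family that responds to Wnt signals, went from 8.05 ± 0.52 to 10.25 ± 0.78 (2.21 ± 0.30; adjusted p = 4.75e-05), and LEF1, the nuclear partner of β-catenin, from 7.20 ± 0.27 to 7.92 ± 0.46 (0.72 ± 0.21; adjusted p = 0.0278). The other calls were LGR4 upwards and MYC, BAMBI and AXIN2 downwards. LEF1 missed the threshold without any of 4 arrays (adjusted p of at most 0.146 without replicate 4 at 48 h) and without the 6 low-CLEC2A arrays (0.0788).

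Several further large rises have no place in these lists. LMO1, a LIM-only transcriptional cofactor, lay at 6.83, 6.90, 6.98 and 6.94 at 24 h, all below background, and at 9.52, 8.50, 9.03 and 10.57 at 48 h. It was at least 4.95-fold higher (adjusted p = 9.86e-06), with the 48 h arrays spread over 2 units of log2. VWF, the von Willebrand factor best known from endothelium, was likewise dim at 24 h and reached 9.18 ± 0.81 at 48 h, which is at least 4.22-fold higher (adjusted p = 7.28e-05). KDR, an endothelial and mesodermal receptor, stood at 7.06 ± 0.14 at 24 h and at 48 h below background throughout, at 6.65 ± 0.17. PKDCC, a secreted protein kinase, read 9.29, 9.91, 8.54 and 8.32 at 24 h and 11.67, 11.50, 11.39 and 11.33 at 48 h, a rise of 2.46 ± 0.32 (adjusted p = 3.98e-05).

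Guidance and adhesion molecules were also among the calls. EPHA4, an ephrin receptor of axon guidance and hindbrain boundaries, rose from 8.07 ± 0.42 to 10.11 ± 0.55 (2.04 ± 0.28; adjusted p = 4.75e-05). FLRT3, a transmembrane protein that binds FGF and netrin receptors, rose by 1.82 ± 0.27, with 1 of 4 arrays at 24 h above background (adjusted p = 0.000129). Of 25 semaphorins, plexins, netrins, slits and robos, 5 rose and none fell, with a median of 0.04. SEMA5B (0.88 ± 0.16; adjusted p = 0.000781) and SEMA4C (0.74 ± 0.11; adjusted p = 0.000105) passed in each leave-one-out fit. NRP2, SEMA6A and NTN1 also passed, yet adjusted p reached 0.0507 for NRP2 without replicate 4 at 24 h, 0.108 for SEMA6A without replicate 4 at 24 h and 0.2 for NTN1 without replicate 4 at 48 h. Of 15 protocadherins and neural adhesion genes, 3 rose (FLRT3, CNTNAP2 and NRCAM) and 1, NLGN4X, fell, with a median of 0.29. NLGN4X did not pass without the 6 low-CLEC2A arrays (adjusted p = 0.0964), and CNTNAP2 stood at 0.0516 without replicate 3 at 24 h.

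Targets of BMP signalling, the pathway dorsomorphin inhibits, were among the genes that passed on this day. Of 8 tested, 4 rose, 1 fell and 3 did not pass, where 4.03% of all genes tested were higher and 4.78% lower. The list's median was 0.60, or 0.28 with dim values at background. BMP2, a ligand that is itself a target, read 7.99, 8.02, 7.51 and 7.22 at 24 h and 9.25, 8.74, 8.90 and 9.19 at 48 h, a rise of 1.33 ± 0.17 (adjusted p = 3.98e-05). ID2, a dominant-negative helix-loop-helix protein, rose by 0.80 ± 0.17 (adjusted p = 0.00494) and the inhibitory SMAD6 by 0.55 ± 0.13 (adjusted p = 0.00954), both without overlap of arrays. DLX5 also passed (adjusted p = 0.0101) but exceeded background on 0 arrays at 24 h and 1 at 48 h, so no fold is given. ID3, a direct target, read 10.48, 10.39, 10.18 and 9.44 at 24 h and 10.99, 10.47, 10.49 and 11.32 at 48 h; its arrays overlapped and the difference of 0.70 ± 0.23 did not pass (adjusted p = 0.0598). ID1 was too dim to be tested. BAMBI, a pseudoreceptor that dampens the pathway, fell by 0.91 ± 0.27 (adjusted p = 0.0327), but missed the threshold without any of 5 arrays (adjusted p of at most 0.173 without replicate 4 at 48 h).

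Of 16 BMP ligands, antagonists, receptors and SMADs, 4 rose and none fell, with a median of 0.08. BMP2 and SMAD6 belong to this list too. FST, the activin-binding follistatin, stood at 1.39 ± 0.42 with 24 h replicate 2 (10.25) inside the range of the 48 h arrays (adjusted p = 0.039), and SMAD4, the common SMAD, at 0.43 ± 0.13 (adjusted p = 0.045). Both missed the threshold without single arrays, at adjusted p of up to 0.182 for FST without replicate 4 at 48 h and 0.174 for SMAD4 without replicate 3 at 24 h. In 12 Nodal and Activin genes, 2 rose, SHISA2 and TGIF2, and 4 fell, GDF15, NANOG, INHBE and TGIF1, with a median of -0.14. SHISA2 was also counted in the Wnt list above, and NANOG is counted in the pluripotency list below. A single fall remained without replicate 1 or 4 at 48 h or without replicate 3 or 4 at 24 h.

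The core stem cell factors NANOG and POU5F1 both fell, NANOG by the larger step. NANOG, a core pluripotency factor, read 8.11, 8.24, 8.03 and 7.79 at 24 h and 6.63, 7.22, 7.16 and 6.97 at 48 h, where 2 of 4 arrays exceeded background. Its groups were apart, and it fell by 1.04 ± 0.16 (2.06-fold; adjusted p = 0.000203). POU5F1, the core factor OCT4, read 11.98, 12.00, 11.87 and 12.08 at 24 h and 11.57, 11.44, 11.46 and 11.49 at 48 h. The fall of 0.49 ± 0.11 passed (1.41-fold; adjusted p = 0.00758). In the pluripotency list of 25, 6 genes fell, where 4.78% of all genes tested were lower, 1 rose and 18 missed the threshold, and the median was -0.02. The others that fell were POLR3G, which encodes a subunit of RNA polymerase III (-0.68 ± 0.17; adjusted p = 0.0152, and 0.081 without replicate 4 at 48 h), DPPA2, VRTN and FOXD3, the last below background on all 8 arrays. SALL4, a zinc finger partner of OCT4, went the other way (0.64 ± 0.19; adjusted p = 0.0333), with overlapping arrays and adjusted p of 0.146 without replicate 4 at 48 h.

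Feedback genes and targets of FGF and ERK were mostly lower where they passed. Of 19 tested, 9 fell, where 4.78% of all genes tested were lower, 1 rose (EPHA4, above) and 9 did not pass, with a median of -0.43. SPRY4, a sprouty inhibitor of ERK signalling, read 8.55, 7.88, 8.41 and 8.71 at 24 h and 6.99, 7.27, 7.21 and 6.94 at 48 h, with 2 arrays above background at 48 h. It fell by 1.28 ± 0.18 (2.43-fold; adjusted p = 4.75e-05). The ETS factors ETV4 and ETV5, transcriptional effectors of FGF, passed as well. ETV4 went from 7.79 ± 0.39 to 7.02 ± 0.16 (adjusted p = 0.0194), and ETV5, above background on 3 arrays at 24 h and none at 48 h, was at least 1.32-fold lower (adjusted p = 0.029). DUSP6, an ERK phosphatase, lay above background on all 4 arrays at 24 h, at 7.35 to 7.87, and on none at 48 h, at 6.64 to 7.05. It was at least 1.37-fold lower, and its test did not pass (adjusted p = 0.127). The falls numbered 5 without replicate 3 at 24 h, 3 without replicate 4 at 24 h and 5 without replicate 4 at 48 h, where adjusted p reached 0.154 for ETV5 and 0.0887 for ETV4, each without replicate 4 at 24 h.

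Among 10 FGF ligands and receptors, FGF8, an organizer signal of the anterior and mid-hindbrain plate, passed upwards (adjusted p = 0.00422), although it exceeded background on no array at 24 h and 2 at 48 h. FGF2, which supports stem cell growth, fell by 0.57 ± 0.17 (adjusted p = 0.0291, and 0.126 without replicate 4 at 48 h). Immediate early genes answer growth factors and stress within a short time. Of 17 tested, 5 fell, where 4.78% of all genes tested were lower, and none rose, with a median of -0.34. JUN read 8.93, 8.25, 9.09 and 9.19 at 24 h and 7.17, 8.35, 7.58 and 6.96 at 48 h, so replicate 2 at both times overlapped, and it fell by 1.35 ± 0.28 (adjusted p = 0.00334). The other falls were MYC (-1.06 ± 0.31), ATF3 (-0.86 ± 0.21), IER3 (-0.73 ± 0.18) and DUSP1 (-0.50 ± 0.13). IER3 is also an ERK list member. Counts in this list ran from 1 without replicate 4 at 24 h to 8 without replicate 2 at 24 h, with 3 without replicate 3 at 24 h and 2 without replicate 4 at 48 h. Of these genes only JUN passed in each leave-one-out fit, and adjusted p reached 0.132 for MYC, 0.0598 for ATF3 and 0.0683 for IER3 without replicate 4 at 24 h, and 0.0945 for DUSP1 without replicate 4 at 48 h.

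Metallothioneins, small cysteine-rich proteins that bind zinc and copper, gave the largest falls of the day. The factor MTF1 is known to activate their genes in response to zinc through metal response elements in the promoters. The promoter sequences of 3 members that fell are shown because 6 of the 8 genes tested in this list fell and metallothionein promoters are known for this element. Each run is the 250 bases before the transcription start on the plus strand of GRCh38.p14, from RefSeq, with matches to TGCACNC or TGCGCNC on either strand in capitals.
MT2A: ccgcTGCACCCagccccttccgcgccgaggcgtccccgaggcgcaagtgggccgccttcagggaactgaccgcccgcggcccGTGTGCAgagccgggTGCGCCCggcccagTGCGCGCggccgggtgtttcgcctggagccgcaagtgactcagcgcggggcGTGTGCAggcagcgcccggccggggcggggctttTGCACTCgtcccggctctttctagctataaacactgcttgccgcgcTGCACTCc
MT1X: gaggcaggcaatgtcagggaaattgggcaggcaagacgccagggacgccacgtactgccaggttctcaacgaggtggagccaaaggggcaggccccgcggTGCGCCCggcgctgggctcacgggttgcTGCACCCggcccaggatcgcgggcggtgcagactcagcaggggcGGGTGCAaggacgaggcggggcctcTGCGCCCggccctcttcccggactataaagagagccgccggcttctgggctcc
MT1H: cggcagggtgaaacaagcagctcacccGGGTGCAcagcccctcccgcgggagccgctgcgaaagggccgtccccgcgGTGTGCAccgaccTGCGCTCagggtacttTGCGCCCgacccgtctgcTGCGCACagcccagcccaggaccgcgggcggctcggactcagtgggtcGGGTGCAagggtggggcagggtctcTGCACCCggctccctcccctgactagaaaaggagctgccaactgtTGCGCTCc
They lie at chr16:56608334-56608583 for MT2A, chr16:56682220-56682469 for MT1X and chr16:56669564-56669813 for MT1H. MT2A held 7 matches, MT1X 4 and MT1H 8, with overlapping matches counted singly, whereas 24.8% of 35116 promoters of the same length held at least 1 match and 0.37% held at least 4. Of the list, 4 genes had an entry in the promoter table, and the fourth, the zinc exporter SLC30A1, held 1 match. A match describes letters in this window and is not evidence of binding.

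Of 8 tested genes in the list, 6 fell, where 4.78% of all genes tested were lower, and 2 did not pass, with a median of -3.22. MT1G read 13.41, 13.68, 13.33 and 12.32 at 24 h and 8.26, 10.56, 9.23 and 8.20 at 48 h. In log2 it fell by 4.12 ± 0.61 (17.4-fold; adjusted p = 0.000108). MT2A, whose promoter is shown above, read 12.63, 13.52, 12.31 and 11.08 at 24 h and 9.20, 10.04, 9.62 and 9.07 at 48 h, a fall of 2.90 ± 0.49 (7.48-fold; adjusted p = 0.000489). In both genes the times were far apart, and replicate 2 was the highest array at each time. The other falls were those of MT1X (-3.61 ± 0.70; adjusted p = 0.00176), MT1H (-3.59 ± 0.55; adjusted p = 0.000155), MT1E (-3.54 ± 0.53; adjusted p = 0.000124) and MT1F (-2.33 ± 0.45; adjusted p = 0.00176). MT1M stood at -1.34 ± 0.56 (adjusted p = 0.145) and SLC30A1, also an MTF1 target, at -0.22 ± 0.14 (adjusted p = 0.383). The members' sequences are nearly identical, so the value of a single metallothionein is uncertain. The count of 6 was the same in each of the 8 leave-one-out fits.

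A second block of falls was that of actin and smooth muscle genes. Of 17 genes in the fibroblast and smooth muscle list, 7 fell, where 4.78% of all genes tested were lower, none rose and 10 did not pass. The list's median was -0.52. ACTA1, the skeletal muscle actin, read 12.47, 12.73, 12.81 and 12.57 at 24 h and 11.15, 11.57, 11.74 and 10.98 at 48 h, without overlap, and fell by 1.28 ± 0.16 (2.44-fold; adjusted p = 2.87e-05). ACTG2, a smooth muscle actin, fell by 1.00 ± 0.19 (adjusted p = 0.00139), ACTC1, the cardiac actin, by 1.12 ± 0.28 (adjusted p = 0.0131) and TAGLN, an actin-binding protein, by 0.86 ± 0.25 (adjusted p = 0.0281). Actins are near-identical in sequence too, which makes single members uncertain. The remaining falls were those of CNN1, CALD1 and VIM. ACTA2, the actin of smooth muscle and myofibroblasts, stood at 0.76 ± 0.30 (adjusted p = 0.128) and the collagen COL1A1 at 0.13 ± 0.24 (adjusted p = 0.809), both chosen after their values were seen. Of 6 markers of such cells, COL3A1, LUM and DCN lay below background on all 8 arrays. The log2 of the added unlogged signals of the 6, in which the brightest weigh most, ran from 11.72 to 12.02 at 24 h and from 11.89 to 12.19 at 48 h. The falls numbered 4 without replicate 1 at either time and 2 without replicate 3 at 24 h or replicate 4 at 48 h, where adjusted p was 0.152 for TAGLN and 0.0734 for ACTC1 in the last case.

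Other large falls came from genes of diverse roles. ADM, the peptide adrenomedullin, which hypoxia induces, read 12.47, 10.91, 12.61 and 12.36 at 24 h and 9.96, 10.52, 10.53 and 8.47 at 48 h. It fell by 2.22 ± 0.46 (adjusted p = 0.00379). HEY2, a repressor downstream of Notch, went from 9.87 ± 0.53 to 7.75 ± 0.45 (-2.12 ± 0.24; adjusted p = 9.86e-06). GADD45G, a stress and growth-arrest gene, fell from 9.74 ± 0.35 to 7.87 ± 0.36 (adjusted p = 0.000205) and NTS, the neuropeptide neurotensin, from 9.15 ± 0.65 to 7.29 ± 0.27, with 3 of 4 arrays above background at 48 h (adjusted p = 9.18e-05). PMAIP1, the pro-apoptotic NOXA, fell by 1.80 ± 0.27 (adjusted p = 0.000113) and PRICKLE1, a planar cell polarity gene, by 1.66 ± 0.27 (adjusted p = 0.000266).

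**Figure D2:**
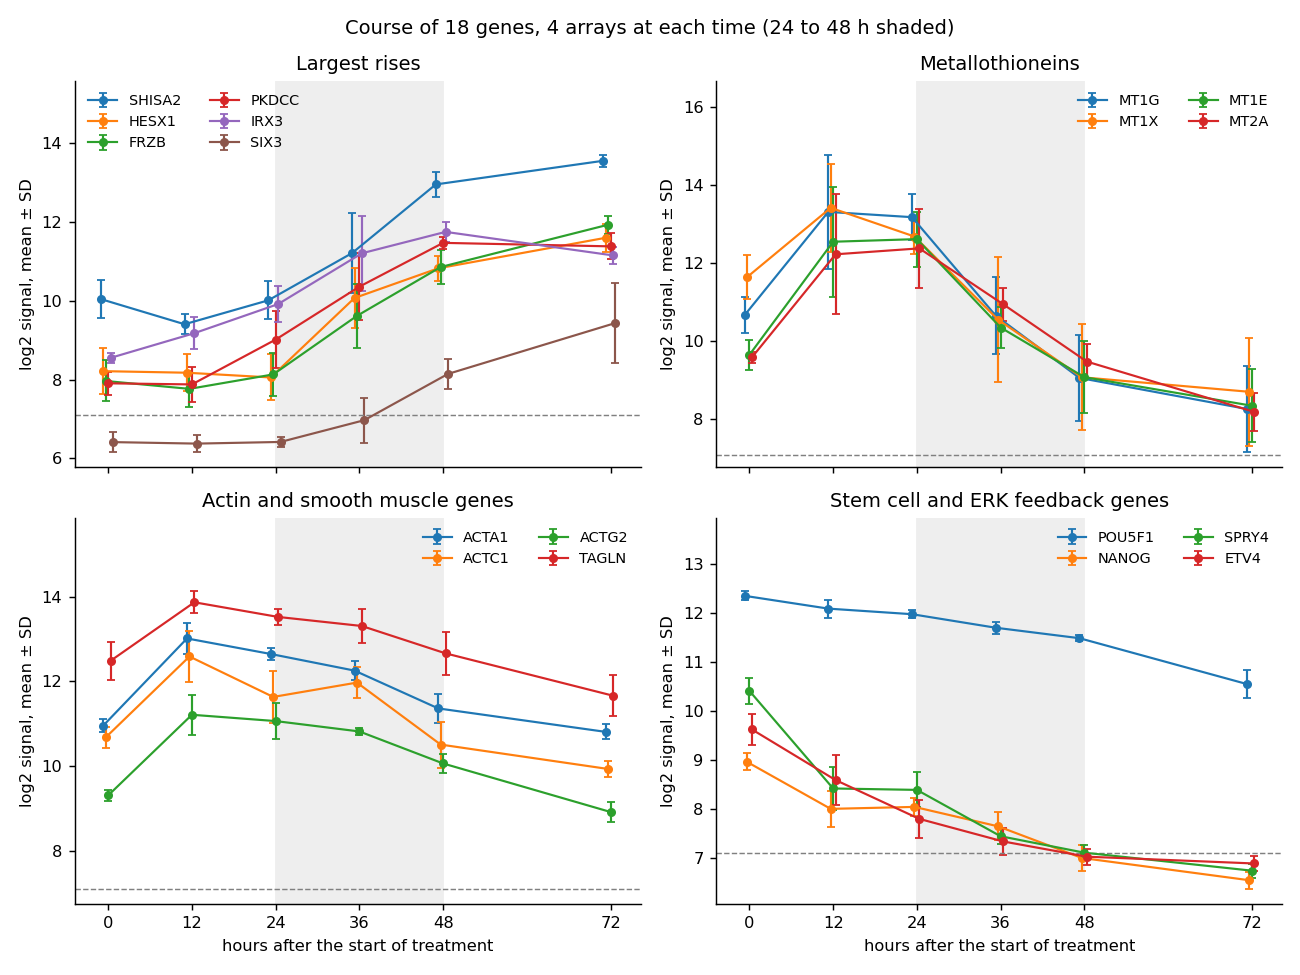
Mean ± SD of the deposited log2 signal on 4 arrays at each of 6 times for 18 genes in 4 panels, with the interval from 24 to 48 h shaded and the background of 7.10 dashed. SHISA2, HESX1 and FRZB change little up to 24 h and climb within the shaded interval, metallothioneins and actins are above their 0 h level at 12 and 24 h and lower at 48 h than at 24 h, and NANOG, SPRY4 and ETV4 come down to the background by 48 h.

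Genes of amino acid supply and ER stress, many of them targets of ATF4, were mostly lower where they passed. Of 25 tested, 8 fell, where 4.78% of all genes tested were lower, 1 (DNAJB9) rose and 16 did not pass, with a median of -0.21. The cationic amino acid transporter SLC7A3 fell by 0.72 ± 0.14 (adjusted p = 0.0013) and passed in each leave-one-out fit. Asparagine synthetase, ASNS, read 12.18, 11.93, 12.15 and 12.09 at 24 h and 11.50, 11.59, 11.44 and 10.51 at 48 h. It fell by 0.83 ± 0.20 (adjusted p = 0.0117, and 0.0659 without replicate 4 at 48 h). SLC7A5, a neutral amino acid transporter, stood at -0.91 ± 0.25 (adjusted p = 0.0229) and VLDLR, a lipoprotein receptor that ATF4 induces, at -1.16 ± 0.32 (adjusted p = 0.0243), reaching 0.123 and 0.122 without replicate 4 at 48 h. The list held 4 falls without the 6 low-CLEC2A arrays, 4 without replicate 3 at 24 h, 3 without replicate 4 at 24 h and 1 without replicate 4 at 48 h. Among 18 cytosolic aminoacyl-tRNA synthetases no gene passed, and the median was -0.12.

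Shares of calls were 4.8% for glycolysis, 4.0% for sterol and fatty acid synthesis and 4.3% for oxidative phosphorylation, below the 8.81% of all genes tested. The hypoxia response list stood at 13.6%, from 1 rise and 2 falls, and its difference from 8.81% was not tested. Of 21 glycolysis genes 1 fell, the aldolase ALDOC (-0.87 ± 0.18; adjusted p = 0.0043), although 19 of the 21 differences were below 0 and the median was -0.27. Of 22 hypoxia response genes, ADM and STC2 fell and EGLN3, an oxygen sensor, rose by 0.64 ± 0.10 (adjusted p = 0.000214), with a median of -0.22. STC2, stanniocalcin, missed the threshold without any of 6 arrays (adjusted p of at most 0.159 without replicate 4 at 24 h). Of 25 sterol and fatty acid synthesis genes, 1 passed, the elongase ELOVL6, lower by -0.47 ± 0.12 (adjusted p = 0.0151, and 0.0693 without replicate 4 at 48 h), with a median of -0.17. In the oxidative phosphorylation list 2 of 47 passed, SDHA and NDUFC1, both lower, with a median of -0.05, and neither passed without the 6 low-CLEC2A arrays (adjusted p = 0.0592 and 0.13).

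Lists of the cell cycle and of translation held smaller shares of calls than the 8.81% of all genes tested. Of 36 S phase and DNA replication genes, 2 rose, GINS3 (0.62 ± 0.14; adjusted p = 0.00882) and the polymerase POLE (0.36 ± 0.11; adjusted p = 0.0374), with a median of 0.12. Of 37 mitosis genes, the kinetochore genes CENPF (0.64 ± 0.12; adjusted p = 0.00134) and CENPE (0.44 ± 0.13; adjusted p = 0.0271) rose, with a median of 0.08. RPL28 was the 1 call among 65 cytosolic ribosomal proteins (0.41 ± 0.11; adjusted p = 0.0197), and the assembly factor BYSL that among 25 nucleolar genes (-0.37 ± 0.10; adjusted p = 0.0276). GINS3 and CENPF passed in each leave-one-out fit, while adjusted p reached 0.169 for POLE without replicate 4 at 48 h, 0.117 for CENPE and 0.0796 for RPL28 without replicate 4 at 24 h and 0.104 for BYSL without replicate 4 at 48 h. Of 18 p53 targets 2 fell, RRM2B, a ribonucleotide reductase subunit (-0.90 ± 0.16; adjusted p = 0.000645), and GDF15 (adjusted p = 0.0288), which had no 48 h array above background. The arrays of GDF15 overlapped, and it missed the threshold without any of 4 arrays (adjusted p of at most 0.132 without replicate 4 at 24 h). PMAIP1, given above among the largest falls, was not a member of this list.

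DNA methylation, the subject named in the study's title, had 3 calls among 25 genes of its machinery, or 12%, against 8.81% of all genes tested. UHRF1, which brings DNMT1 to hemimethylated DNA, read 10.70, 10.84, 10.60 and 10.04 at 24 h and 11.27, 10.76, 11.25 and 11.55 at 48 h. It rose by 0.67 ± 0.17 (adjusted p = 0.0138), with replicate 2 overlapping. TET1, a dioxygenase that oxidizes 5-methylcytosine, read 9.04, 9.09, 8.96 and 9.05 at 24 h and 9.80, 9.14, 9.38 and 9.50 at 48 h, a rise of 0.42 ± 0.12 (adjusted p = 0.0263). The third call is GADD45G, given above. The de novo methyltransferases did not pass, with DNMT3A at 0.05 ± 0.14 (adjusted p = 0.881) and DNMT3B at 0.08 ± 0.19 (adjusted p = 0.864), and their arrays overlapped. UHRF1 missed the threshold without replicate 4 at 24 h (adjusted p = 0.0755) or replicate 4 at 48 h, and TET1 without any of 5 arrays (adjusted p of at most 0.125 without replicate 1 at 48 h) and without the 6 low-CLEC2A arrays (0.0804). Of 32 histone methylation and deacetylation enzymes, the deacetylase SIRT1 fell by 0.69 ± 0.12 (adjusted p = 0.000684) and the methyltransferase KMT2A rose by 0.32 ± 0.10 (adjusted p = 0.0368, and 0.144 without replicate 4 at 24 h). NNAT, an imprinted gene active in the developing brain, rose by 1.04 ± 0.19 (adjusted p = 0.00122) and CDKN1C, an imprinted cell cycle inhibitor, fell by 0.61 ± 0.16 (adjusted p = 0.0199), as the calls among 14 imprinted genes. CDKN1C did not pass without the 6 low-CLEC2A arrays (0.0525).

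In the short lists of retinoic acid, Notch and hedgehog genes, 30.8%, 17.6% and 16.7% passed, against 8.81% of all genes tested. Of 13 retinoic acid genes, MEIS2, the binding protein CRABP2 (0.68 ± 0.13; adjusted p = 0.00227) and the receptor RXRA (0.54 ± 0.09; adjusted p = 0.000658) rose, while ALDH1A3, an enzyme that makes retinoic acid, fell by 0.89 ± 0.13 (adjusted p = 0.000137); the median was -0.14 and the mean 0.06. Among 17 Notch pathway genes, HES1, an effector that keeps progenitors undifferentiated, rose by 0.64 ± 0.13 (adjusted p = 0.00215), and HEY2 and HES6 fell, with a median of 0.06 and a mean of -0.09. HES6 missed the threshold without any of 6 arrays (adjusted p of at most 0.193 without replicate 4 at 48 h) and without the 6 low-CLEC2A arrays (0.0596). PTCH1, the hedgehog receptor, was the 1 call of 6 hedgehog genes (0.37 ± 0.11; adjusted p = 0.0348, and 0.122 without replicate 3 at 24 h). Clock genes had 2 falls among 15, BMAL1 (-0.32 ± 0.09; adjusted p = 0.0324; 0.114 without replicate 4 at 24 h) and RORB, which no 48 h array showed above background.

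Markers of the labelled cell type and of others that such a culture could hold were read on the same arrays. Each sum is the log2 of the added unlogged signals, so the brightest markers weigh most in it. All 8 pluripotency markers measured exceeded background on all 4 arrays at 24 h and 7 did so at 48 h, NANOG being the exception, and their summed signal ran from 15.44 to 15.85 and from 15.59 to 15.71. Of 9 neural progenitor markers 5 exceeded background on all 8 arrays, SOX1 on none, and the sum ran from 13.69 to 14.20 at 24 h and from 14.31 to 14.80 at 48 h. SOX2 is counted in both of these sets. Among the progenitor markers SOX21 and OTX2 passed upwards, whereas SOX2, PAX6, LHX2 and NES did not pass. TBXT, MESP1 and EOMES of mesoderm, SOX17, FOXA2, GATA6 and CER1 of endoderm, CGA, GATA3, ELF5 and CDX2 of trophoblast, TFAP2A, SNAI2 and FOXD3 of neural crest and ELAVL4 of neurons lay below background on all 8 arrays. SOX10 of neural crest and TUBB3 and STMN2 of neurons lay above it on all 8. The sums for neural crest, mesoderm, endoderm, trophoblast and neurons were 9.33 to 9.38, 8.54 to 8.71, 8.91 to 9.64, 8.91 to 9.23 and 11.77 to 12.07 at 24 h and 9.24 to 9.34, 8.47 to 8.69, 8.94 to 9.09, 8.96 to 9.11 and 12.02 to 12.14 at 48 h.

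Lists of other lineages were short. Against 8.81% of all genes tested, 33.3% of the endoderm, 30.8% of the early neuronal, 33.3% of the epidermal and 55.6% of the mesenchymal genes passed. The trophoblast list had 0% and the junction list 4.5%. CXCR4, a chemokine receptor counted with endoderm, was dim at 24 h and at least 1.33-fold higher by 48 h (adjusted p = 0.00313), and the homeobox gene HHEX rose by 0.87 ± 0.25 (adjusted p = 0.0283, and 0.0878 without replicate 1 at 24 h). They were the 2 calls among 6 endoderm genes, and none of 6 trophoblast genes passed. In 13 early neuronal genes NRCAM (0.59 ± 0.12; adjusted p = 0.00379) and MAP2 (0.49 ± 0.14; adjusted p = 0.0335) rose and INSM1 and INA fell. MAP2 missed the threshold without any of 5 arrays (adjusted p of at most 0.147 without replicate 4 at 24 h), INSM1 without either of 2 (0.066 without replicate 3 at 24 h) and INA without any of 6 (0.157 without replicate 4 at 48 h) and without the 6 low-CLEC2A arrays (0.0599). Of 9 epidermal genes PERP and DLX5 passed upwards and EPHA2 fell. The 11 neural crest genes had DLX5 again upwards and FOXD3 downwards. FOXD3 lay below background on all 8 arrays, and DLX5 exceeded it on 1 array at 48 h only. KDR fell among 2 mesoderm genes. Adjusted p reached 0.12 for KDR without replicate 1 at 48 h and 0.0624 for PERP without replicate 4 at 48 h. LMX1A was the 1 call, upwards, of 3 midbrain, hindbrain and HOX genes bright enough to test, and exceeded background on 1 array, replicate 4 at 48 h. The epithelial GTPase RAB25 was the 1 fall among 22 junction genes (-0.77 ± 0.13; adjusted p = 0.000416). ZEB2, a mesenchymal and neural zinc finger repressor, was dim on every 24 h array and at least 1.40-fold higher by 48 h, when 1 of 4 arrays was still dim (adjusted p = 0.0263, and 0.142 without replicate 4 at 48 h). TNC and COL5A1 also rose and COL5A2 and VIM fell among the 9 mesenchymal genes tested, with a median of 0.28. Of 27 collagens, laminins and integrins 3 rose (LAMB1, COL4A5 and COL5A1) and 3 fell (COL2A1, COL5A2 and ITGB5), with a median of 0.06. Of 10 Eph receptors and ephrins EPHA4 and EFNB1 rose and EPHA2 fell, with a median of 0.07. TNC, COL5A1, COL5A2, LAMB1, COL4A5, COL2A1 and EFNB1 each missed the threshold without at least 1 array, with adjusted p of up to 0.214 for LAMB1 without replicate 4 at 48 h. Of 7 IGF genes IGFBP6 fell (-0.53 ± 0.14; adjusted p = 0.0243, and 0.136 without replicate 4 at 48 h).

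The change of this day was then set against that of the first day, from 0 to 24 h, by a test of the difference between the changes, in which the 24 h arrays enter both. The difference passed for 202 genes (1.98%), with 56 higher (0.548%) and 146 lower (1.43%) on the second day than on the first. On its own the first day had 737 calls (7.21%), 406 of them higher (3.97%) and 331 lower (3.24%). SHISA2 stood at 10.04 ± 0.49 at 0 h and changed by -0.03 ± 0.32 on the first day against 2.94 ± 0.32 on the second, a difference of 2.98 ± 0.56 (adjusted p = 0.00638). HESX1 gave -0.16 ± 0.33 and 2.77 ± 0.33, differing by 2.93 ± 0.56 (adjusted p = 0.00643), and FRZB 0.17 ± 0.32 and 2.73 ± 0.32, differing by 2.56 ± 0.56 (adjusted p = 0.0154; 0.0825 without replicate 3 at 24 h, and leaving out replicate 4 of that time also ended the call). BTBD17 turned, with -1.26 ± 0.22 on the first day and 1.31 ± 0.22 on the second (difference 2.57 ± 0.38; adjusted p = 0.000449).

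Metallothioneins and actins turned the other way. MT1G changed by 2.52 ± 0.61 and then by -4.12 ± 0.61, a difference of -6.64 ± 1.05 (adjusted p = 0.000842). The differences were -6.51 ± 0.91 for MT1E, -6.01 ± 0.95 for MT1H and -5.70 ± 0.85 for MT2A, the largest of the test. Of the list of 8, 5 had risen on the first day and 6 fell on the second. ACTA1 gave the smallest adjusted p, with 1.69 ± 0.16 on the first day and -1.28 ± 0.16 on the second (difference -2.97 ± 0.28; adjusted p = 9.81e-07). In the fibroblast and smooth muscle list 9 genes had risen on the first day and 7 fell on the second. By 48 h MT1G stood at 9.06 ± 1.10 against 10.67 ± 0.47 at 0 h, and ACTA1 at 11.36 ± 0.35 against 10.96 ± 0.14. HEY2 turned as well, with 0.89 ± 0.24 and -2.12 ± 0.24 (adjusted p = 0.000253 for the difference).

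DUSP6 changed by -2.85 ± 0.26 on the first day and by -0.66 ± 0.26 on the second, a difference of 2.20 ± 0.45 (adjusted p = 0.0107), with the second-day value limited by the background. ID3 changed by -1.59 ± 0.23 and by 0.70 ± 0.23 (adjusted p = 0.00329 for the difference). SPRY4, at -2.03 ± 0.18 and -1.28 ± 0.18, did not differ past the threshold (0.74 ± 0.30; adjusted p = 0.222), nor did NANOG, at -0.92 ± 0.16 and -1.04 ± 0.16 (adjusted p = 0.891). Both had reached the background by 48 h, SPRY4 at 7.10 ± 0.16 and NANOG at 6.995 ± 0.27, each with 2 arrays above it. Their second-day values are thus limited as well, and similar falls on the 2 days cannot be read from these tests. Of the 25 sterol and fatty acid genes, 12 had fallen and 2 risen on the first day, against the 1 call of the second. The 56 higher and 146 lower calls became 34 and 70, 166 and 231, 18 and 49, and 22 and 65 when replicates 1 to 4 at 24 h were left out in turn. They became 91 and 192 without replicate 2 at 48 h and 35 and 89 without replicate 4 at 48 h.

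**Figure D3:**
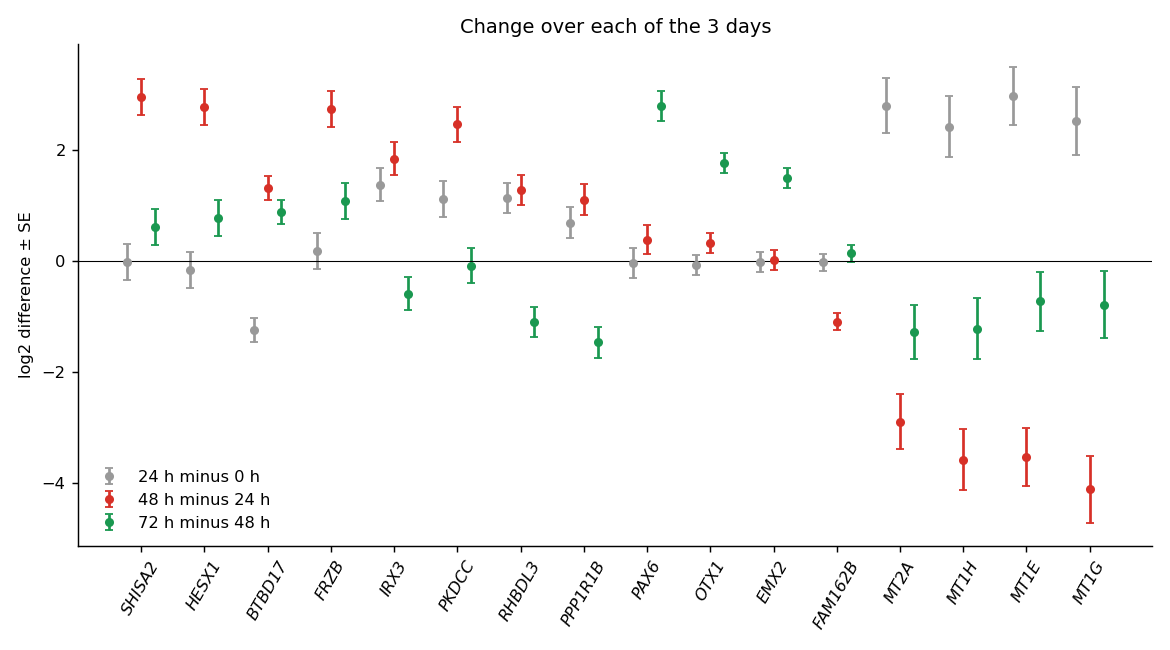
Change in log2 signal ± SE of the fit over the first (grey), second (red) and last (green) day for the 16 genes with the largest tested differences between days, from 4 arrays at each time. SHISA2, HESX1 and FRZB have their large change on the second day, PAX6, OTX1 and EMX2 on the last, and the 4 metallothioneins rise on the first and fall on the second.

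A change of the same length that began earlier, from 12 to 36 h, was compared with that from 24 to 48 h, and the 4 groups share no array. No gene passed limma's test of the difference (0% of those tested; smallest adjusted p = 0.086), while 492 genes had an unadjusted p below 0.05. On its own the earlier interval had 528 calls (5.17%), 261 higher (2.56%) and 267 lower (2.61%). PKDCC changed by 2.48 ± 0.32 over the earlier and 2.46 ± 0.32 over the later interval, with a difference of -0.03 ± 0.45. SHISA2 gave 1.81 ± 0.32 and 2.94 ± 0.32 (difference 1.14 ± 0.46; adjusted p = 0.942), MT2A -1.28 ± 0.49 and -2.90 ± 0.49 (difference -1.62 ± 0.70; adjusted p = 0.977), and SIX3 0.60 ± 0.32 and 1.73 ± 0.32 (difference 1.13 ± 0.45; adjusted p = 0.926). LMO1, with no array above background at 12 or 24 h, gave 0.50 ± 0.29 and 2.49 ± 0.29 (difference 1.99 ± 0.42; adjusted p = 0.157). A p outside the threshold does not show that the intervals are alike. With SEs of this size, even differences as large as that of LMO1 were not resolved.

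The last day, from 48 to 72 h, differed from the second for 30 genes (0.294%), 7 higher (0.0685%) and 23 lower (0.225%), and here the 48 h arrays enter both changes. The last day alone had 634 calls (6.21%), 275 of them higher (2.69%) and 359 lower (3.51%). PAX6 changed by 0.38 ± 0.27 on the second day and by 2.79 ± 0.27 on the last, a difference of 2.41 ± 0.46 (adjusted p = 0.0238). The forebrain homeobox genes EMX2 (0.01 ± 0.19, then 1.49 ± 0.19) and OTX1 (0.32 ± 0.18, then 1.76 ± 0.18) followed the same order, each with adjusted p = 0.0411, and both lay at or below background on most arrays up to 48 h. FAM162B fell by 1.10 ± 0.15 on the second day and changed by 0.14 ± 0.15 on the last (difference 1.24 ± 0.26; adjusted p = 0.0411).

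In the opposite direction, PPP1R1B, the phosphatase inhibitor DARPP-32, changed by 1.10 ± 0.28 and then by -1.47 ± 0.28 (difference -2.57 ± 0.48; adjusted p = 0.0212), and RHBDL3, of the rhomboid family, by 1.27 ± 0.27 and then by -1.11 ± 0.27 (difference -2.38 ± 0.47; adjusted p = 0.0314). PKDCC (2.46 ± 0.32, then -0.09 ± 0.32) and IRX3 (1.83 ± 0.30, then -0.60 ± 0.30) had differences of -2.55 ± 0.56 and -2.43 ± 0.51, each with adjusted p = 0.0411. These 2 genes climbed on the second day and did not pass in the comparison of 72 h with 48 h (adjusted p = 0.937 and 0.296). The counts of this test depended on single arrays, with no call without replicate 2 at 48 h, 1 without replicate 3 at 48 h, and 18 higher and 71 lower without replicate 2 at 24 h. Without replicates 1, 3 or 4 at 24 h there were 3 and 13, 4 and 6, and 3 and 10, without replicate 1 at 48 h 2 and 6, without replicate 4 at 48 h 10 and 25, and without replicates 1 to 3 at 72 h 2 and 5, 5 and 10, and 14 and 44. Each of the 8 genes missed the threshold without at least 3 of the arrays involved, with adjusted p of up to 0.252 for OTX1 without replicate 2 at 48 h, 0.234 for EMX2 and 0.125 for PAX6 without replicate 3 at 48 h and 0.176 for PKDCC without replicate 1 at 48 h.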

How the data were processed

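H1 cells at 6 times after the start of induction were measured on 24 Illumina HumanHT-12 v4 arrays. The deposited log2 values had been brought to nearly the same quantiles on all arrays by the authors, as the values show; nothing given here states the background correction or the software. Another deposited table held 48 columns of per-sample values that match no sample's labels, and these were not used. Of 37900 deposited rows, 10159 fell into 4746 sets with the same values on all arrays, and each such set entered as a single one of 32487 measurements. The platform annotation gave 1 symbol to 26221 rows, several to 7 and none to 11672. A gene was represented by its brightest measurement, chosen over all arrays, and 2129 tested genes had several.

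In R 4.3.3, limma 3.58.1 fitted the 6 time means to all 24 arrays with a shared spread, and p-values were adjusted by Benjamini-Hochberg over the 10215 genes tested, at a threshold of 0.05. The scripts were tested on simulated data. A gene below background on all 4 arrays of 1 time has only a bound there, so its fold is given as at least the mean of the bright arrays over the higher of the background and its own value, and no fold is given where most arrays of both times were dim. Tests across days are contrasts of the same fit. Holding values below background at the background gave the second medians of lists.

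The text names the 12 largest rises and the 12 largest falls whose arrays do not overlap, up to 4 members past the threshold in each list (all where 5 or fewer passed), the 4 largest in each direction of each test across days, and a set of stem cell, neural, BMP, ERK and DNA methylation genes. The members and lists were chosen with earlier results of these data known. The alternatives were other filters, backgrounds, normalizations and variance models, leaving out arrays, and fits with terms for replicate number, the 6 low-CLEC2A arrays or the 2 sets of replicates. The fits with a term for the low-CLEC2A arrays or for the sets of replicates were chosen after seeing the data. Same-numbered arrays at 24 and 48 h had deviations correlating at 0.444, -0.253, 0.423 and -0.283, so a number was not taken to pair them. Promoter sequences are from RefSeq, GRCh38.p14.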

Additional observations from a re-analysis of the deposited data

Results flagged for a closer look

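In 10 of 249 groups of 4 arrays examined, for the genes named above, a single array lay farther from the rest than Dixon's criterion allows, where chance gives about 1 in 20. At 24 h, replicate 2 had ADM at 10.91 against 12.36 to 12.61 on the others, VLDLR at 8.84 against 10.08 to 10.31 and LHX2 at 7.78 against 6.51 to 6.58. This is the low-CLEC2A array of that time. Replicate 4 at 24 h had SOX21 at 11.17 against 11.91 to 12.02 and DUSP1 at 9.12 against 8.73 to 8.79. At 48 h, replicate 4, the low-CLEC2A array of that time, had TAGLN at 11.91 against 12.84 to 13.01, ASNS at 10.51 against 11.44 to 11.59 and LMX1A at 7.82 against 6.72 to 6.87. Replicate 2 at 48 h had GADD45G at 8.40 against 7.63 to 7.75, and replicate 3 had COL5A2 at 7.60 against 7.37 to 7.40.

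Differences between days that passed limma's test with adjustment over all genes also call for a second look. Between the second and the first day they were, on the log2 scale, 2.98 for SHISA2, 2.93 for HESX1, 2.57 for BTBD17 and 2.56 for FRZB, and -6.64 for MT1G, -6.51 for MT1E, -6.01 for MT1H and -5.70 for MT2A. Between the last and the second day they were 2.41 for PAX6, 1.48 for EMX2, 1.45 for OTX1 and 1.24 for FAM162B, and -2.57 for PPP1R1B, -2.55 for PKDCC, -2.43 for IRX3 and -2.38 for RHBDL3.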

How the results depend on the processing

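No named gene past the threshold for 48 h against 24 h changed sign under any alternative run, an outcome favoured by choosing them on the same arrays. Of those that did not pass, LHX2 (-0.22 on the log2 scale) stood at 0.283 with replicates 3 and 4 and ran from -0.392 to 0.096 when 1 array was left out. DNMT3B (0.08) stood at -0.322 with replicates 1 and 2 and ran from -0.055 to 0.261, and DNMT3A (0.05) stood at -0.011 with replicates 1 and 2 and -0.054 with the mean of its measurements and ran from -0.008 to 0.153. EMX2 (0.01) stood at -0.062 with replicates 1 and 2 and ran from -0.071 to 0.128. More genes were lower than higher with all arrays, and more were higher with replicates 3 and 4 alone, without replicate 4 at 48 h (217 against 201) and without the 6 low-CLEC2A arrays (383 against 348). For 48 h against 24 h, the 412 higher and 488 lower genes became 291 and 322 when the fit used only the times compared. They became 5 and 7 with replicates 1 and 2 alone and 238 and 195 with replicates 3 and 4 alone. Leaving out 1 array gave 217 to 578 higher and 201 to 598 lower. With replicate number as a block there were 494 higher and 542 lower genes, 884 of them shared with the 900. For the second day against the first (56 higher, 146 lower), the higher count was 94 with the number as a random block, 0 with replicates 1 and 2, 4 with replicates 3 and 4, 93 without the 6 low-CLEC2A arrays and 162 with a term for them; the lower count was 78 with only the times compared, 8, 9 and, with that term, 285. Leaving out 1 array gave 18 to 166 and 49 to 231. Against 36 h minus 12 h, 1 higher gene appeared without the 6 arrays and 1 with the term, and 1 lower with array weights, 2 without the 6 arrays and 5 with the term; leaving out 1 array gave 0 to 1 in each direction. For the last day against the second (7 and 23), the higher count was 1 with genes bright on at least 20 arrays, 4 with no filter, 3 with the mean of a gene's measurements, 20 with array weights, 4 with a trended robust variance, 12 with the random block, 2 and 0 with replicates 1 and 2 or 3 and 4, 17 without the 6 arrays and 30 with the term. The lower count was 5 at 20 arrays, 8 with the mean, 67 with array weights, 1 and 0 with the pairs of replicates, 52 without the 6 arrays and 70 with the term, and leaving out 1 array gave 0 to 18 and 0 to 71. The cause of these shifts was not tested, apart from the smaller number of arrays or genes that an alternative itself sets. Of 124 named genes past the threshold, 65 passed in each fit without 1 array. For 7545 genes the signal over background was too low to test, and 90 tested genes lay below background on all 8 arrays of the comparison.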
